A study of Mus musculus with 10 samples.

Results

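The smooth muscle contractile genes are 10 genes whose products build or regulate the contractile apparatus of smooth muscle: Acta2, Actg2, Tagln, Cnn1, Myh11, Myl9, Smtn, Lmod1, Tpm2 and Des. They were taken by symbol from the deposited expression table, where all 10 were present among 36172 genes, and all 10 had values and were tested. RNA sequencing had been done on 10 libraries of cells cultured from the left atrial appendage of the hearts of C57BL/6 mice aged 8 to 12 weeks, with 2 libraries for each of 5 cell types. A cells grew out of tissue pieces after strong digestion (trypsin 0.25%, collagenase D 0.1%, 3 rounds of 5 min) and were c-kit positive and CD45 negative. B cells grew out after weak digestion (trypsin 0.05%, same collagenase D) and were positive for both c-kit, a receptor of stem and progenitor cells, and CD45, a leukocyte surface protein. C1 (passage 6, c-kit+/CD45-), C2 (passage 8, c-kit-/CD45-) and C3 (passage 10, c-kit-/CD45-) were later cultures derived from B-type cells. No genotype or drug distinguished the groups. Whether the pair of libraries of a type are separate animals, cultures or aliquots is not stated, so the p-values cover no more than the spread within these pairs, which may be technical.

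Smooth muscle cells contract when a myosin made of the heavy chain Myh11 and the regulatory light chain Myl9 slides along filaments of the smooth muscle actins Acta2 and Actg2. Tropomyosin, calponin, transgelin, smoothelin and leiomodin bind those filaments, and desmin links them to the rest of the cell. Many of these genes carry a CArG box, a short DNA element bound by serum response factor (Srf), which acts with myocardin or with the related coactivators Mkl1 and Mkl2. In the heart wall the set is best known from arterial smooth muscle, while Acta2, Tagln, Cnn1 and Myl9 are also made by activated fibroblasts, pericytes and cultured mesenchymal cells.

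The deposited values are log2 values centred on each gene's own median over the 10 libraries, so a value of 0 marks the middle of that gene's range and levels of different genes cannot be ranked. Des, Actg2 and Cnn1 reached the floor of the table in at least 2 libraries, and for these 3 genes alone a level in normalized reads could be given. The relative depth of the libraries ran from 0.436 in B replicate 1 to 5.03 in C3 replicate 2. A difference was called when limma, a linear model with a spread shared between genes, gave an adjusted p under 0.05 (Benjamini-Hochberg over 14254 genes) and a log2 difference of at least 1. Of 12 macrophage genes the median in A replicate 2 was 3.79, against 0.04 in A replicate 1, 9.86 and 9.80 for B, and between -0.56 and 0.05 in the 6 C libraries. Ptprc, which encodes CD45, had centred log2 values of 2.74 and 6.35 for A, 11.46 and 11.41 in B and between -0.01 and 0.01 in the C libraries, so A replicate 2 carried CD45 transcripts against its CD45- label. Counts against A are therefore also given without A replicate 2. The cardiomyocyte myosins Myh6 and Myh7 were listed at 0 in all 10 libraries. Other genes of the cardiomyocyte list were not silent, and Myl7 had 50.4 and 41.4 normalized reads in C3. Of the 6 cardiomyocyte genes tested, 2 were higher and 2 lower in C3 against A, where 14.4% of all genes were higher and 19.9% lower. In bulk RNA a lower value can stand for fewer cells of a type or for less RNA per cell, and these cannot be told apart here.

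Acta2 (chr19:34240336-34255585, GRCm38), Myl9 (chr2:156775408-156781657) and Lmod1 (chr1:135324813-135368065) are shown by their promoters because these were the members with a CArG-like box near the start. The RefSeq promoters of GRCm38.p6 cover 250 bases before and 50 bases after the start. They were searched for the CArG box by name, a 10-letter element whose consensus is the same on both strands, so 1 search covered both. Each line gives 20 bases on either side of a match, 5′ to 3′ on the gene's strand, with the box in capitals.
Myl9, consensus box, chr2:156775283-156775332, plus strand: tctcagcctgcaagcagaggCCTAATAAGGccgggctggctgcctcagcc
Myl9, 1 letter off, chr2:156775345-156775394, plus strand: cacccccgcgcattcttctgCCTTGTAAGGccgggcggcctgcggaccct
Acta2, 1 letter off, chr19:34255428-34255477, minus strand: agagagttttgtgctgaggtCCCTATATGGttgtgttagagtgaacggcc
Acta2, 1 letter off, chr19:34255378-34255427, minus strand: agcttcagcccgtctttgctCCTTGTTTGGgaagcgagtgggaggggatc
Lmod1, 1 letter off, chr1:135324604-135324653, plus strand: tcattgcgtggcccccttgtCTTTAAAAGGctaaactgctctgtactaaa
Lmod1, 1 letter off, chr1:135324629-135324678, plus strand: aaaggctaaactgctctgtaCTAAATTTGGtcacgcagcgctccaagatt

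Of the 10 genes 7 had a promoter in the table, and Actg2, Tagln and Myh11 did not. A consensus box stood in 1 of the 7, against 535 of 32851 promoters (1.63%). A box at most 1 letter off stood in 3 of the 7, against 6936 promoters (21.1%). No such letters were found in these windows of Cnn1, Smtn, Tpm2 and Des, which says nothing of boxes elsewhere in those genes.

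The smooth muscle actins are close copies of the actins that every cell makes, and their coding sequences show how far reads could be told apart. The lines below give the start of the coding sequence (GENCODE M21, GRCm38), with capitals where an aligned base is not that of Acta2.
Acta2: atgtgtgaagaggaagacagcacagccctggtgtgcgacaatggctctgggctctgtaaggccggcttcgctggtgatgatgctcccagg
Actg2: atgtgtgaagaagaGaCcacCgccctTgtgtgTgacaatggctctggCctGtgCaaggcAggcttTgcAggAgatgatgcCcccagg
Actb: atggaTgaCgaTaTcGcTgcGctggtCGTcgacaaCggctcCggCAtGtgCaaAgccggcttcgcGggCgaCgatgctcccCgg

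In these stretches 13 bases of Actg2 and 21 bases of Actb were not as in Acta2. Over the whole coding sequence Acta2 was 84.4% identical to Actg2, 83.2% to Actb and 81.9% to Actg1, and the longest run of identical bases was 29, 47 and 56. Myl9 was 85.5% identical to Myl12a, with a longest identical run of 35 bases. The handling of reads that fit more than 1 gene is not stated in the sources used, so values of these paralogs are uncertain to that extent.

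The contractile genes did not move as 1 block. By type mean, 7 of the 10 were lowest in C1, with Des tied at the floor with C3. By the same measure 5 of the 10 were highest in C2, the culture taken 2 passages later. The genes lowest in C1 were Actg2, Tagln, Cnn1, Myl9, Lmod1, Tpm2 and Des. Acta2 and Smtn were lowest in B, and Myh11 was lowest in A. Highest in C2 were Acta2, Tagln, Cnn1, Myl9 and Lmod1, highest in A were Actg2, Smtn and Tpm2, Des was highest in B and Myh11 for C1. Some of these ranks were not separated between libraries. At the low end, Cnn1 and Tpm2 in C1 overlapped B. At the high end, Acta2 in C2 overlapped C3, Cnn1 in C2 overlapped A, and Myh11 in C1 overlapped C2. Actg2 and Tpm2 in A overlapped C3. The range from the lowest to the highest type mean had a median of 3.37 log2 over the 10 genes, against 1.62 over all genes tested, and ran from 1.36 to 6.21.

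**Figure D1:**
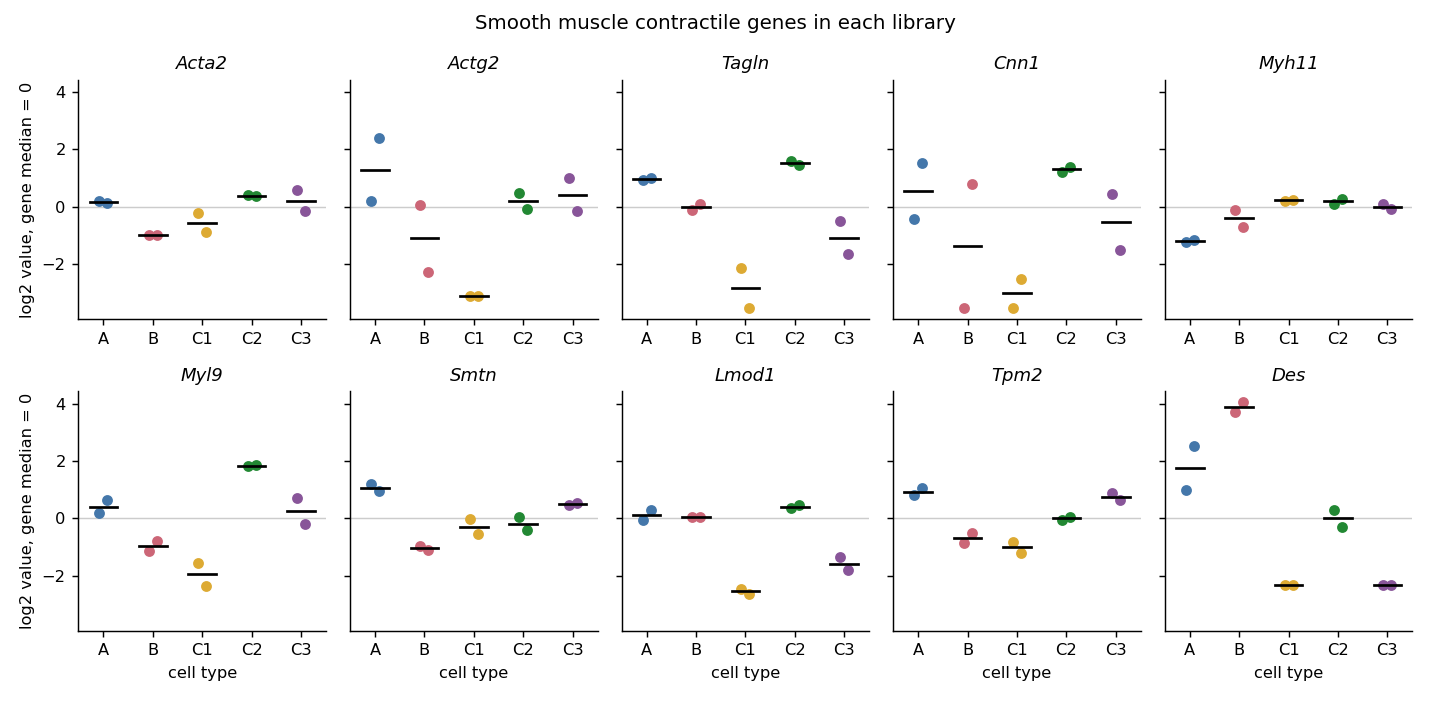
Centred log2 values (y axis, 0 is the gene's median over 10 libraries) of the 10 contractile genes in the 5 cell types (x axis); each point is a library and each bar the mean of 2. C1 held the lowest mean of 7 genes, while Myh11 had its lowest mean in A.

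Acta2 encodes alpha smooth muscle actin, the most abundant actin of vascular smooth muscle. Its centred log2 values were 0.20 and 0.15 for A, -0.97 and -0.98 for B, -0.23 and -0.88 for C1, 0.39 and 0.36 for C2, and 0.58 and -0.15 for C3. Both B libraries were below all 8 others, while A, C2 and C3 overlapped or lay next to one another. Acta2 was 2.22-fold lower in B than in A (log2 -1.15 ± 0.29 SE, limma adjusted p = 0.0176). This was the only one of the 7 comparisons in which Acta2 was called, and the call was lost without A replicate 1 (limma adjusted p = 0.0540) and without either B library. From C1 to C2 the log2 difference was 0.93 with a limma adjusted p of 0.0426, under the size asked for.

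Actg2 (chr6:83512909-83536251) encodes gamma smooth muscle actin, known from visceral smooth muscle. It had 9.94 and 45.8 normalized reads in A, 9.18 and 1.81 for B, none above the floor in either C1 library, 12.2 and 8.26 for C2, and 17.3 and 7.93 for C3. These stand for few reads, 6 and 24 in A and 6 and 8 for C2, while C1 at the floor allows up to 3.02 normalized reads. Both C1 libraries were listed lowest, but B replicate 2, at 1 read, was also under its limit of 3 reads, so C1 is not shown to lie below it. A overlapped C2 and C3, and B overlapped C2 and C3 but lay below A. Set against that limit, Actg2 was at least 9.22-fold lower in C1 than in A, at least 3.39-fold higher in C2 than in C1 and at least 4.18-fold higher in C3 than in C1, and all 3 differences were called. From the lower library of the higher type in place of its mean, these bounds were 3.29, 2.73 and 2.63. The fitted log2 difference of C1 from A was -4.41 ± 0.93 SE (limma adjusted p = 0.00911). This SE pools the spread of all types, and the C1 libraries, tied at the floor, add none to it, which makes it smaller. The rise from C1 to C2 lost its call without any 1 of the 4 libraries compared (limma adjusted p up to 0.137), and the rise from C1 to C3 without either C1 library or without C3 replicate 1.

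Tagln (chr9:45929628-45936058) encodes transgelin, an actin-binding protein and early smooth muscle marker. Its values were 0.92 and 1.00 for A, -0.10 and 0.10 for B, -2.12 and -3.53 for C1, 1.59 and 1.46 for C2, and -0.51 and -1.64 for C3. The 5 types did not overlap, in the order C2, A, B, C3 and C1. From B to C1 Tagln fell by 2.83 ± 0.50 SE log2 (limma adjusted p = 0.00341). From C1 to C2 it rose by 4.35 ± 0.50 SE (limma adjusted p = 0.0012), a 20.4-fold difference. From C2 to C3 it fell by 2.60 (limma adjusted p = 0.006). The B and A values differed by less than the call required (log2 -0.96 in B against A, limma adjusted p = 0.176). Tagln overlaps exons of Pcsk7 over 108 bases and of Gm48529 over 1241 bases on the other strand, and the kit kept no strand. Pcsk7 was not called in any of the 7 comparisons, Gm48529 had no values, and the part of either in the Tagln values was not tested.

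Cnn1 (chr9:22099221-22109221) encodes calponin, which binds actin and slows the myosin motor. Its level was 8.40 and 32.5 normalized reads in A, at the floor and 19.9 for B, at the floor and 2.00 for C1, 26.3 and 30.0 for C2, and 15.4 and 3.97 for C3. The C1 libraries lay at 0 to 3 reads and the C2 libraries at 13 and 29 reads, while the B libraries stood far apart. No comparison of Cnn1 was called. From C1 to C2 the log2 difference of 4.31 ± 1.41 SE had a limma adjusted p of 0.0517. Over the alternatives tried it lay on the called side when any A or B library was left out (limma adjusted p from 0.0175 to 0.0483), after quantile normalization and in a fit of the libraries compared alone.

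Lmod1 encodes leiomodin, which seeds actin filaments in smooth muscle. Its values were -0.05 and 0.28 for A, 0.05 and 0.05 for B, -2.45 and -2.63 for C1, 0.37 and 0.46 for C2, and -1.36 and -1.81 for C3. A and B overlapped, C2 lay just above them, and C1 and C3 lay well below. Lmod1 was the most closely repeated of the large changes: from B to C1 it fell by 2.60 ± 0.20 SE log2 (limma adjusted p = 9.22e-05). It rose from C1 to C2 by 2.96 (limma adjusted p = 0.000177) and, from C2 to C3, fell by 2.00. None of these 3 calls was lost under any of the 16 alternatives. From A to B it did not pass the test (log2 -0.06).

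Smtn (chr11:3517522-3539292) encodes smoothelin, a protein of contractile smooth muscle, and Tpm2 (chr4:43513726-43523583) encodes beta-tropomyosin, which lies along the actin filament. Smtn had values of 1.20 and 0.94 for A, -0.95 and -1.11 for B, -0.04 and -0.55 for C1, 0.04 and -0.39 for C2, and 0.45 and 0.55 for C3. Tpm2 had values of 0.81 and 1.06 for A, -0.86 and -0.50 for B, -0.81 and -1.20 for C1, -0.06 and 0.06 for C2, and 0.87 and 0.64 for C3. Both genes were highest in A with C3 next, and only in Tpm2 did A and C3 overlap. They differed before and after C1. From B to C1 the log2 difference was 0.74 for Smtn and -0.32 for Tpm2, and neither was called. Tpm2 rose from C1 to C2 by 1.01 ± 0.20 SE log2 (limma adjusted p = 0.00994), whereas the Smtn difference was 0.12. The difference between the changes of Smtn and Tpm2 was not tested. The Tpm2 rise lay at the edge of the size asked for and fell under it after quantile normalization (0.94). Without C1 replicate 2 (0.81, limma adjusted p = 0.0618) or C2 replicate 2 (0.95, limma adjusted p = 0.0514) it was not called. From C1 to C3 Tpm2 rose by 1.76 and Smtn differed by 0.80, under the size asked for. Smtn exons overlap Gm11946 over 714 bases on the other strand.

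Myh11 (chr16:14194527-14292188), the smooth muscle myosin heavy chain and the most specific marker of the set, took a course of its own. Its values were -1.24 and -1.14 for A, -0.10 and -0.69 for B, 0.22 and 0.23 for C1, 0.11 and 0.27 for C2, and 0.09 and -0.09 for C3. A was below all 8 other libraries, and B lay below the 6 C libraries, B replicate 1 only just under C3 replicate 2. From A to B the log2 difference was 0.80 (limma adjusted p = 0.0206), under the size asked for, and it passed that size without B replicate 2 (1.09) and after quantile normalization (1.18). Myh11 rose from A to C1 by 1.41 ± 0.21 SE log2 (limma adjusted p = 0.00217) and from A to C3 by 1.19 (limma adjusted p = 0.00294). Among C1, C2 and C3 the log2 differences were -0.04, -0.19 and -0.23, and none was called. Over the 10 libraries its correlation with each of the 9 other genes was negative (median r -0.41), as a description of libraries that share cell types.

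Myl9 encodes the regulatory light chain whose phosphorylation starts contraction. Its values were 0.20 and 0.63 for A, -1.15 and -0.77 for B, -1.56 and -2.34 for C1, 1.83 and 1.85 for C2, and 0.71 and -0.20 for C3. Both C2 libraries were above all others and both C1 libraries below all others. From A to B Myl9 fell by 1.37 ± 0.37 SE log2 (limma adjusted p = 0.0249). It rose from C1 to C2 by 3.79 (limma adjusted p = 0.000671), a 13.8-fold difference, and from C2 to C3 it fell by 1.58 (limma adjusted p = 0.0132). The fall from A to B lost its call without A replicate 2 (limma adjusted p = 0.0905) and without either B library. The fall from C2 to C3 lost it without either C2 library or without C3 replicate 2, with limma adjusted p up to 0.0720, and was larger after quantile normalization (-2.64).

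Des (chr1:75360292-75368579) encodes desmin, the intermediate filament of muscle cells, and its pattern was that of the primary cells. It had 10.1 and 28.7 normalized reads in A, 66.3 and 83.3 for B, none above the floor in C1, 6.12 and 4.14 in C2 and none above the floor in C3. The B libraries held 29 and 46 reads and the C2 libraries 3 and 4 reads. B lay above A, A above C2, and C1 and C3 were both at the floor. Des was at least 24.7-fold lower in C1 than in B (fitted log2 -6.21 ± 0.46 SE, limma adjusted p = 8.37e-05). The SE pools the spread of all types, and the C1 and C3 libraries, tied at the floor, add none to it, which makes it smaller. Des was at least 19.4-fold lower in C3 than in A by the mean of A, and at least 10.1-fold lower by A replicate 1 alone. It rose from A to B by 2.13 (limma adjusted p = 0.00981), which was 2.88 without A replicate 2 and 1.37 without A replicate 1. It was not called without B replicate 2, in a fit of the libraries compared alone or after quantile normalization (0.48, limma adjusted p = 0.355). The called differences of C2 from C1 and from C3 (fitted log2 2.33 and -2.33 in C3 against C2) rest on C2 libraries of 3 and 4 reads. Their mean, 5.13 normalized reads, was under the limit of C2 replicate 1 (6.12). C2 replicate 2 lay just above its own limit (4.14 against 3.11). No fold is given. The rise from C1 was not called without C2 replicate 1 (limma adjusted p = 0.0572), and the fall to C3 was -1.52 after quantile normalization. Des exons overlap the antisense gene Gm15179 over 220 bases.

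**Figure D2:**
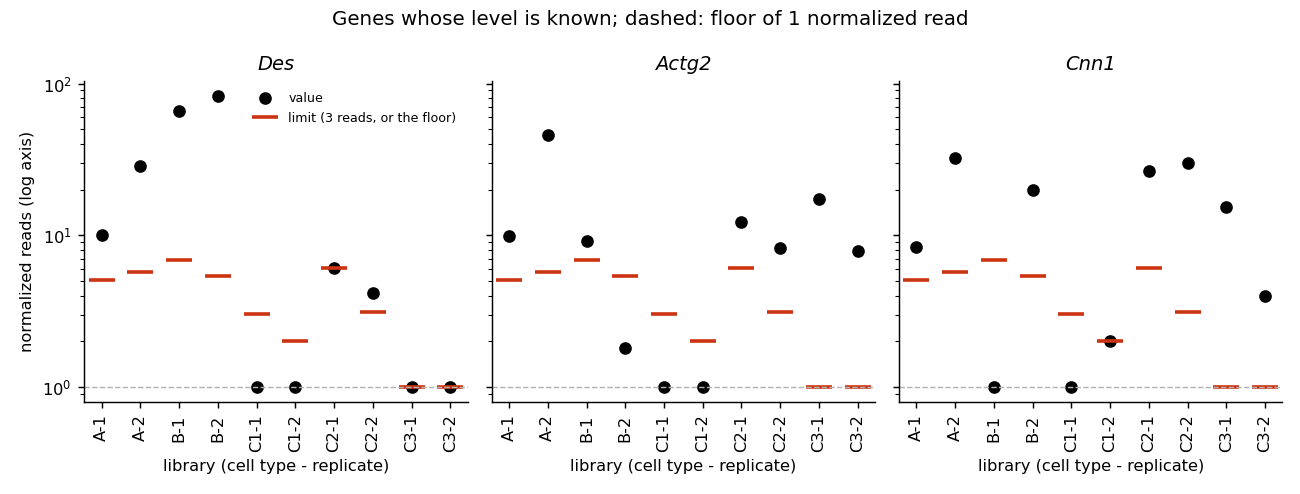
Normalized reads (y axis, log scale) of Des, Actg2 and Cnn1 in each of 10 libraries (x axis); black points are values, red bars the limit of 3 reads or the floor where that is higher, and the dashed line is the floor of 1. Des was at the floor in both C1 and both C3 libraries, and Actg2 in both C1 libraries.

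The comparison of B with A asked how the 2 primary outgrowths differ. In B, 4 contractile genes fell (Acta2, Myl9, Smtn, Tpm2), 1 rose (Des) and 5 did not pass, where 12.4% of all genes tested fell and 14.5% rose (26.9% called). Smtn had the largest called fall, with log2 -2.10 in B against A. The median over the 10 genes was -1.26, against 0.01 over all genes. Without A replicate 2, 3 fell and 1 rose. All 12 macrophage genes rose in B, and 9 of 14 fibroblast genes and 5 of 7 pericyte genes tested fell. The pericyte gene Anpep rose (log2 3.76). The part of these lists in the result was not tested.

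The comparison of C1 with B asked how the cells changed on the way to the CD45-negative passage 6 culture. In C1, 3 contractile genes fell (Tagln, Lmod1, Des), 0 rose by limma (2 at an unadjusted p under 0.05) and 7 did not pass, where 21.1% of all genes fell and 12.6% rose (33.7% called). Those 2 missed only the size asked for: Smtn (log2 0.74, limma adjusted p = 0.0322) and Myh11 (log2 0.62, limma adjusted p = 0.0408). The median was -1.32, against -0.07 over all genes. Those 3 of 10 are near the share of all genes that fell. In the same comparison all 12 macrophage genes, 7 of 8 endothelial genes and 6 of 7 pericyte genes fell. The other pericyte gene, Pdgfrb, rose (log2 1.25), and the part of these lists was not tested.

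C1 and A share the c-kit+/CD45- label. In C1, 7 contractile genes were lower than in A (Actg2, Tagln, Myl9, Smtn, Lmod1, Tpm2, Des), 1 was higher (Myh11) and 2 did not pass (Acta2, Cnn1), where 16.6% of all genes were lower and 10.1% higher (26.6% called). The median was -2.51, against -0.04 over all genes. Without A replicate 2 the counts were again 7 and 1. In a fit of the libraries compared alone the calls of Actg2 (limma adjusted p = 0.0520) and Smtn (limma adjusted p = 0.0507) were lost. Of the fibroblast genes 9 of 14 and of the pericyte genes 5 of 7 were also lower in C1, and 1 fibroblast gene was higher. The part of these lists was not tested.

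From passage 6 to passage 8, 6 contractile genes rose (Actg2, Tagln, Myl9, Lmod1, Tpm2, Des), 0 fell by limma (0 at an unadjusted p under 0.05) and 4 did not pass, where 12.2% of all genes rose and 8.18% fell (20.4% called). The median was 2.65, against 0.00 over all genes. The count ranged from 4 to 7 when single libraries were left out. Without C1 replicate 2, 4 were called, which lacked Actg2 and Tpm2. This comparison shares the C1 libraries with the one before it, so a low value in C1 enters both. Of the fibroblast genes 5 of 14 rose and 2 fell, of the epicardial and mesothelial genes 4 of 10 rose, and their part was not tested.

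From passage 8 to passage 10, 4 contractile genes fell (Tagln, Myl9, Lmod1, Des), 0 rose by limma (2 at an unadjusted p under 0.05) and 6 did not pass, where 16.2% of all genes fell and 11.6% rose (27.9% called). Those 2 missed only the size asked for: Tpm2 (log2 0.75, limma adjusted p = 0.0223) and Smtn (log2 0.68, limma adjusted p = 0.0479). The median was -0.89, against 0.00 over all genes. The fibroblast list fell in 12 of 14 genes and rose in 1. The pericyte list fell in 5 of 7, while 5 of 10 epicardial and mesothelial genes rose. The part of these lists was not tested. C3 replicate 1 was above C3 replicate 2 in 8 of the 10 contractile genes and below it in 1. The median absolute gap was 0.59, against 0.19 over all genes. It was also larger than over all genes in C1 (0.45 against 0.18) and B (0.35 against 0.15). In A (0.30 against 0.36) and C2 (0.14 against 0.22) it was not. A replicate 2 was above A replicate 1 in 8 of the 10.

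Against C1, C3 was higher in 4 contractile genes (Actg2, Tagln, Myl9, Tpm2) and lower in 0 by limma (0 at an unadjusted p under 0.05), where 17.1% of all genes were higher and 17.7% lower (34.8% called). The count was 2 without C1 replicate 2 and 6 without C1 replicate 1. The rise of Tagln was lost without C1 replicate 2 (limma adjusted p = 0.111), without C3 replicate 1 and in a fit of the libraries compared alone. Against A, C3 was lower in 3 (Tagln, Lmod1, Des) and higher in 1 (Myh11), where 19.9% of all genes were lower and 14.4% higher (34.3% called). Those counts were the same without A replicate 2, and the Tagln call was lost without C3 replicate 2 (limma adjusted p = 0.0788). Called either way, the 4 of 10 contractile genes in each comparison are near the shares of all genes (34.8% and 34.3%). In C3 against C1, 9 of 14 fibroblast genes and 3 of 7 pericyte genes fell. There 7 of 10 epicardial and mesothelial genes and 1 fibroblast gene, Ctgf, rose. In C3 against A, 11 of 14 fibroblast genes and 7 of 7 pericyte genes were lower. Of 10 epicardial and mesothelial genes 7 were higher and 2 lower, among the latter Aldh1a2 (log2 -10.36). The part of these lists was not tested.

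**Figure D3:**
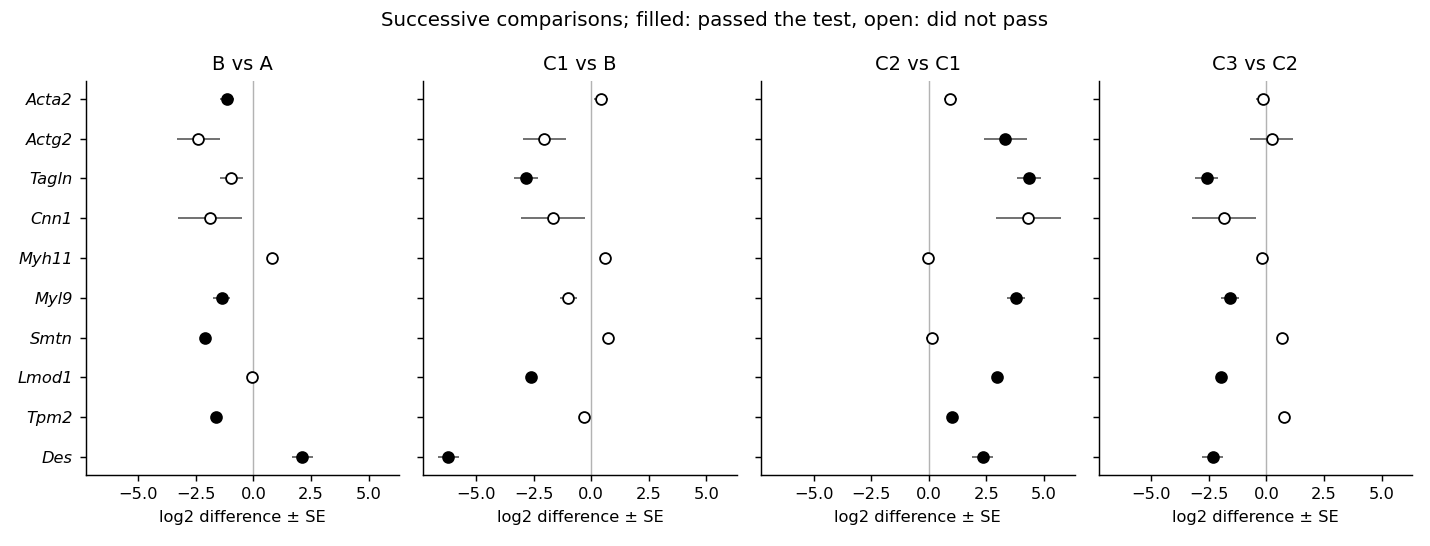
Log2 differences with standard errors (x axis) of the 10 genes (y axis) in the 4 successive comparisons; filled points were called and open points were not. Called points lie to the right in C2 against C1 (6 genes) and to the left in C1 against B (3 genes) and C3 against C2 (4 genes).

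Over the 10 libraries the 45 pairs of contractile genes had a median correlation of 0.51, with 24 pairs above 0.5 and 13 below 0. Tagln and Lmod1 were the most alike (r = 0.95), followed by Myl9 with Tagln (r = 0.84) and Smtn with Tpm2 (r = 0.83). These are descriptions over libraries that share 5 cell types. Outside the set, the genes most like Acta2 were Gbf1 (r = 0.97), Brd3 (r = 0.96), Pask, Pdxp and Map3k4 (each r = 0.94), and those most like Myh11 were Ino80d (r = 0.96), Mll3, Pkp4, Erbb2ip and Styx.

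The muscle forms were next set against the forms that most cells make, as the difference of centred log2 values within a library, which is a description with no test. From C1 to C2 the muscle form gained on its relative in 12 of 14 pairs (median 2.81), and from C2 to C3 it lost in 12 of 14 pairs (median -1.24). Acta2, Cnn1, Myh11, Myl9 and Tpm2 enter more than 1 pair each and Smtn none, so the pairs are not independent. A pair can also change through the relative. From C2 to C3 Acta2 differed by -0.16 and Actb by 0.96, and Tpm2 by 0.75 and Tpm3 by 1.17. Tagln, Myl9, Lmod1 and Des were themselves called lower there. Myl9 minus Myl12a was -1.84 and -2.73 for C1, 2.41 and 2.29 for C2, and 0.43 and -0.31 for C3. The cytoplasmic actin Actb was not called in any of the 7 comparisons, nor were Myh9, the myosin heavy chain of non-muscle cells, Myl12a, Tpm4 and the intermediate filament vimentin (Vim). The other relatives, Actg1, Tagln2, Cnn2, Cnn3, Myl12b, Tpm3, Tmod3 and Myh10, were each called in at least 1 comparison. Among them were Myl12b in C2 against C1 (log2 -1.26) and Tmod3 in C3 against C2 (log2 1.26). Acta2 minus Actb was lowest in B, at -1.40 and -1.42, below all other libraries. Myh10, another non-muscle myosin heavy chain, went its own way: it fell in B against A (log2 -1.86 ± 0.16 SE) and rose in C1 against B (2.32) and in C2 against C1 (1.70). In Myh11 minus Myh10, C2 was therefore lowest, at -1.91 and -1.63, and B highest, at 2.05 and 1.30.

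**Figure D4:**
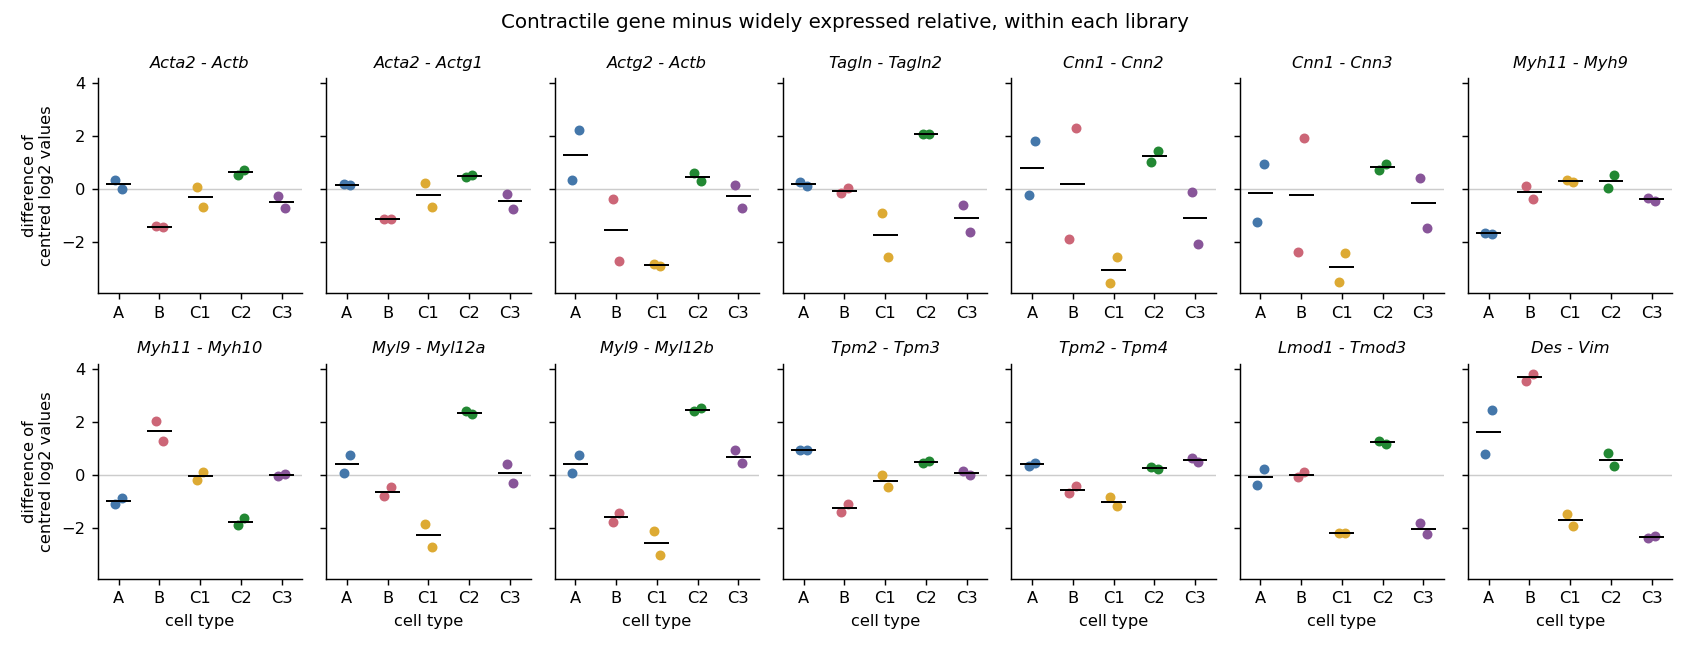
Difference of centred log2 values between a contractile gene and a widely expressed relative (y axis) in the 5 cell types (x axis); each point is a library and each bar the mean of 2. In both Myl9 pairs the C2 points are the highest and the C1 points the lowest.

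Partners of the contractile apparatus, 32 genes for filament anchoring, myosin kinase and phosphatase, and membrane attachment, were counted in the same way. Of the 31 tested, 14 fell in B against A, with a median of -0.74, where 12.4% of all genes fell. In C1 against B, 10 rose and 3 fell, where 12.6% of all genes rose and 21.1% fell. In C2 against C1, 5 rose and 2 fell, where 12.2% of all genes rose and 8.18% fell. In C3 against C2, 2 rose and 5 fell, where 11.6% of all genes rose and 16.2% fell. The partner counts of C2 against C1 and of C3 against C2 are near those shares. Mylk, the kinase that phosphorylates Myl9, had values of -0.05 and -0.52 for A, -0.11 and -1.04 for B, 4.93 and 5.37 for C1, 5.00 and 4.88 for C2, and 0.05 and -0.77 for C3. Mylk was therefore high in both C1 and C2 with no overlap with the other types, and rose by 5.73 ± 0.39 SE log2 in C1 against B (limma adjusted p = 6.44e-05), where Myl9 was not called. Pdlim3, a protein of actin anchoring sites, fell by 9.54 ± 0.75 SE in C3 against C2. Hspb6, a small heat shock protein of smooth muscle, rose by 2.35 in C2 against C1, and the related Hspb1 fell by 2.39. In B against A the largest falls were those of Tgfb1i1 (-2.24), Aoc3 (-2.19), Parva (-1.95) and Fermt2 (-1.69), of which Parva and Fermt2 act at integrin attachment sites.

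Of 17 regulators of the set 16 were tested. In B against A 2 fell, in C1 against B 1 rose and 2 fell, in C1 against A 1 was higher and 4 lower, and in C2 against C1 2 rose. In C3 against C2 and in C3 against C1, 3 were higher and 3 lower, and in C3 against A 2 were higher and 3 lower. In the same order, the shares of all genes called either way were 26.9%, 33.7%, 26.6%, 20.4%, 27.9%, 34.8% and 34.3%. Myocardin (Myocd), the coactivator known from heart and smooth muscle, had 3.36 and 5.75 normalized reads in A, from 2 and 3 reads, and was at the floor in the 8 other libraries. It was below the filter and was not tested. Srf had values of 0.27 and 0.36 for A, -0.37 and -0.66 for B, -0.68 and -0.90 for C1, 0.40 and -0.27 for C2, and 0.87 and 0.62 for C3. Srf was lowest in C1 and highest in C3. It was lower in C1 than in A (log2 -1.10 ± 0.24 SE, limma adjusted p = 0.0106), a call lost without C1 replicate 2, and higher in C3 than in C1 (1.54, limma adjusted p = 0.00188). From C1 to C2, where 6 contractile genes rose, Srf differed by 0.86, under the size asked for. The Srf coactivators Mkl1 and Mkl2 were not called in any comparison. Klf4, a factor that represses contractile genes, fell in C1 against B by 1.23 ± 0.18 SE log2 and rose in C3 against C2 by 1.23. Csrp2, a LIM protein of smooth muscle, fell by 2.35 in B against A and fell by 2.27 in C3 against C2.

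Genes of other cell types that share contractile markers were set beside the 10 genes. The median over the pericyte list was 2.34 and 2.58 for A, 0.86 and 1.15 for B, -0.61 and -0.66 for C1, 0.15 and -0.27 for C2, and -2.11 and -2.36 for C3. It was thus lowest in C3, unlike the median over the contractile genes, which was lowest in C1 at -1.84 and -2.34 and was 0.38 and 0.31 for C2. The pericyte and smooth muscle receptor Notch3 fell by 3.54 ± 0.40 SE log2 in C3 against C2, and Pdgfrb by 2.51. In C2 against C1, 2 of the 7 pericyte genes tested were called higher (Mcam and Cspg4) and 2 lower, Anpep (-2.44) and Pdgfrb (-1.50). Of all genes 12.2% rose and 8.18% fell there. The Cspg4 call was lost without the filter on low values, with the replicate block or without either B library. It rests on C2 libraries of 3 and 2 reads, both at or under the limit of 3 reads, so no rise of Cspg4 is shown. Mcam, an adhesion molecule of pericytes and smooth muscle, fell by 3.89 ± 0.25 SE in C1 against B, rose by 4.51 in C2 against C1 and fell by 3.57 in C3 against C2. The fibroblast list had medians of -0.21 and -0.17 for C1, 0.24 and 0.19 for C2, and -2.48 and -2.96 for C3. Of the skeletal muscle list, Tnnt3, a troponin of fast fibres, rose by 4.36 ± 0.65 SE in C2 against C1, while Myod1, Myog, Myf5, Myh1, Myh3 and Ckm were listed at 0 in all 10 libraries.

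**Figure D5:**
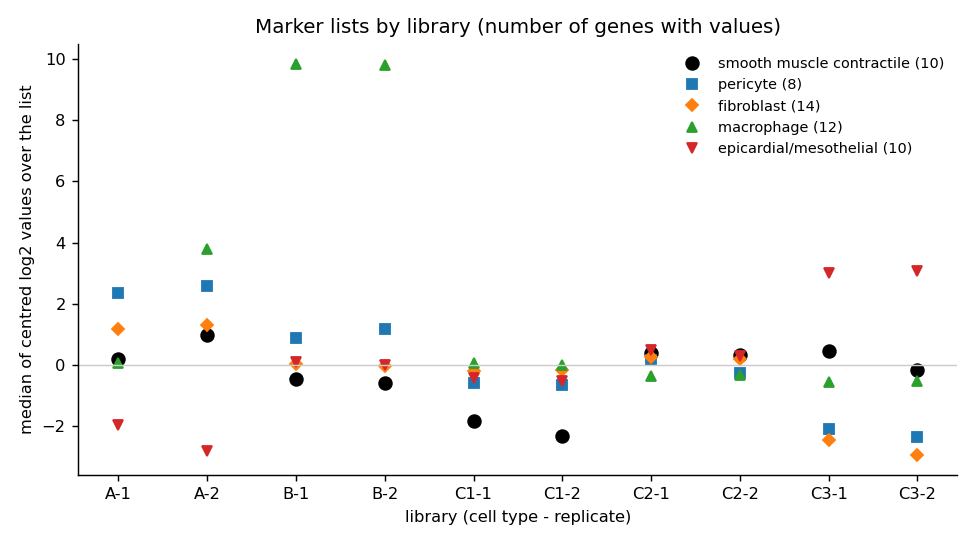
Median of centred log2 values (y axis) over the 10 contractile genes and 4 lists of other cell types, in each library (x axis); the number of genes with values is in the key. The contractile genes were lowest in C1, the pericyte and fibroblast lists in C3, and the macrophage list stood high in B and in A replicate 2.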

How the data were processed

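RNA sequencing libraries of 10 samples, made with a kit that does not mark strand, were used in 5 groups of 2 taken from the sample titles. TopHat, DESeq and mm10 are named, with no version or role, per the submitters' processing notes. The read counter and annotation were not given in the sources used here. Deposited log2 values were read, from the values themselves, as log2 of reads scaled for library size, raised to a floor of 1 and centred on each gene's median. That median lay within 1e-05 of 0 in all 17821 genes with values, and 17 genes with a cell turned into a date were left out. Columns mapped to no sample numbered 0.

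The level of a gene can be read only if its lowest value is shared by 2 or more libraries (4762 genes). The filter on low values asked for 10 normalized reads in 2 or more libraries and could act only on those genes. It removed 3567 and left 14254, of which 1195 have a known level. All 10 contractile genes passed, 3 of known level and 7 on which it could not act. The model was fitted with limma (version 3.58.1, in R 4.3.3) over all 10 libraries with a mean per type, 5 residual and 1.93 prior degrees of freedom, two-sided, in 7 comparisons, and was tested on simulated data. Relative depth came from the spacing of low values, of which 33.2% to 70.6% per library lay within 0.01 of whole reads, so counts were not recovered and totals are unknown. The 3-read limits cover counting error only.

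The contractile genes and the other lists were chosen with earlier results of these data known. Named in the text are the 10 genes, their widely expressed relatives, a set of defining genes, up to 4 genes of each list with the largest called difference in a comparison, and the 5 genes most correlated with Acta2 and with Myh11. Ptprc values served to check the labels. The gene Pcsk7 was named for its overlap after values were seen. Positions and promoters are from RefSeq (GRCm38.p6) and coding sequences from GENCODE M21, matched by symbol. Alternatives were no filter on low values, quantile normalization, centring of libraries, robust empirical Bayes, a replicate block, a fit of the libraries compared alone and leaving out each library.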

Additional observations from a re-analysis of the deposited data

How the results depend on the processing

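Of 70 differences of the contractile genes, 34 were called. Over 16 alternatives, 1053 of 1120 values kept their direction and side of the threshold, 29 lost the call, 25 gained it, 13 changed sign while not called and 0 reversed. In a fit of the libraries compared alone, all genes called fell from 3835 to 2538 in B against A and from 3798 to 2375 in C1 against A. In C3 against A it went from 4892 to 3949, and in the 4 comparisons without A the counts were between 2841 and 4977, against 2906 to 4966. The cause was not tested. When single libraries were left out, contractile genes called ranged over 4 to 5 (B against A), 3 to 4 (C1 against B), 8 to 9 (C1 against A), 4 to 7 (C2 against C1), 3 to 4 (C3 against C2), 2 to 6 (C3 against C1) and 3 to 4 (C3 against A). Among other genes checked, 3 differences that had not been called turned direction and were called. Csf1r in C1 against A, at -0.53, was 1.64 without A replicate 2 (-2.70 without A replicate 1). Pecam1 and Cspg4 in B against A, at 0.40 and 1.21, were -1.93 and -2.52 after quantile normalization, and the cause was not tested. Quantile normalization moved the share of calls that were higher from 53.9% to 46.4% in B against A, 49.1% to 50.8% in C3 against C1, 37.4% to 50.6% in C1 against B, 37.7% to 51.3% in C1 against A, 59.9% to 49.2% in C2 against C1, 41.7% to 52.7% in C3 against C2 and 41.9% to 53.3% in C3 against A. With the replicate number as a block, contractile genes called were 5, 3, 8, 6, 4, 4 and 4 in the order B against A, C1 against B, C1 against A, C2 against C1, C3 against C2, C3 against C1 and C3 against A, as without it. Libraries of the same number showed little shared deviation over all genes tested (r from -0.06 to 0.09). Such values cannot show that these libraries are unpaired, because a shared origin with a small effect could leave them low. Depth limits Des, Actg2 and Cnn1. Actg2 and Cnn1 rest on few reads outside C3, while Des was at the floor in C1 and C3 and had its most reads in B (29 and 46). Having 2 libraries a type limits every test.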
